A study of Irpex lacteus with 9 samples.

Results

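The genes described here are the superoxide dismutases, catalases and thiol antioxidants of the white-rot fungus Irpex lacteus grown on wheat straw. They were taken from the gene table by annotation wording, with no measured value in the rule, though earlier results of these data were known. A gene belonged when its Swiss-Prot or KEGG text named a superoxide dismutase, catalase, peroxiredoxin, thioredoxin, glutaredoxin, glutathione peroxidase, glutathione reductase or cytochrome c peroxidase. This gave 38 of 19212 genes, after 1 further match was left out because its protein domain text named a glutathione S-transferase. Of the 38 genes, 23 were taken by both annotations, 10 by the KEGG text alone and 5 by the Swiss-Prot name alone. By family there were 7 superoxide dismutase entries, 3 catalases, 1 cytochrome c peroxidase, 12 peroxiredoxins, 1 thioredoxin reductase, 8 thioredoxin entries, 1 glutathione reductase and 5 glutaredoxins.

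Superoxide dismutases turn superoxide, a by-product of respiration and of oxidase reactions, into hydrogen peroxide and oxygen. Catalases split hydrogen peroxide into water and oxygen, and cytochrome c peroxidase reduces it with electrons from cytochrome c. Peroxiredoxins reduce it through a reactive cysteine that thioredoxin or, in some, glutaredoxin or glutathione restores. Thioredoxin reductase and glutathione reductase feed these thiol systems with electrons from NADPH, and glutaredoxins use glutathione to reduce disulfides or to handle iron-sulfur clusters. White-rot fungi produce hydrogen peroxide outside the cell as the substrate of the secreted peroxidases that attack lignin, so these fungi handle peroxide on both sides of the cell wall.

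RNA was taken from straw fermented with the fungus after addition of distilled water (the control), ammonium chloride solution (NH4Cl) or sodium nitrate solution (NaNO3). There were 3 libraries in each of the 3 groups, poly-A selected from total RNA, and strain, dose and time of sampling are not given in the sources used here. The organism is labelled Irpex lacteus in the sample records, whereas the series' design text names Tricholoma album. The labels do not say that the libraries of a group came from separate cultures, so p-values measure only the spread between these libraries. Total counts ran from 17896230 to 23194078 per library. The table lists gene models of the fungus, among them 12 chitin synthase and 2 C-8 sterol isomerase genes, and so holds no measure of RNA from the straw. NH4Cl replicate 3 and NaNO3 replicate 1 stood apart from the rest of their groups: their deviations from the group means correlated at 0.46 across genes, against -0.28 to 0.29 for libraries sharing a replicate number. Results were therefore also computed without that pair of libraries, which leaves 2 NH4Cl and 2 NaNO3 libraries beside 3 of water. The pair was picked for its deviation in these same counts, so dropping it can narrow the spread within groups. Passing in that fit is therefore not separate support for a difference. In bulk RNA, a change in the amount of living mycelium of one kind and a change of RNA per cell cannot be told apart.

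A few genes of the set were among the most abundant transcripts of the fungus. The peroxisomal catalase BC629DRAFT_1668858 had a mean level of 6567 FPKM (fragments scaled by gene length and library size, so that genes can be compared) and ranked 7 among all genes. The manganese superoxide dismutase BC629DRAFT_1283329 followed at 2492 FPKM (rank 26), then the peroxiredoxin PRX1 BC629DRAFT_705395 at 1944 FPKM (rank 41) and the thioredoxin BC629DRAFT_1579515 at 1175 FPKM (rank 89). A catalase, a superoxide dismutase, a peroxiredoxin and a thioredoxin thus each exceeded 1000 FPKM, and no reductase, glutaredoxin or cytochrome c peroxidase did. Another 11 genes lay between 100 and 1000 FPKM, 12 between 10 and 100, 8 between 1 and 10, and 3 below 1 FPKM. The order of the catalase, the manganese superoxide dismutase, PRX1 and the thioredoxin was not tested. Their ranges over libraries overlapped in part: 4294 to 9390.1 FPKM for the catalase, 1453 to 3589 for the dismutase, 853 to 3784 for PRX1 and 659.7 to 1833 for the thioredoxin.

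The glutaredoxins and the reductases were at lower levels. Glutaredoxin-1 BC629DRAFT_1279888 had a mean of 175 FPKM, monothiol glutaredoxin-4 BC629DRAFT_1282552 had 165 FPKM, the thioredoxin reductase BC629DRAFT_1508748 had 97.1 FPKM and the glutathione reductase BC629DRAFT_1584308 had 94.9 FPKM. Among the 35 genes with enough counts to test, the highest library exceeded the lowest by 1.32 to 6.84 times in FPKM, with a median of 2.39. The 3 genes left untested were the catalase cta1 BC629DRAFT_1276531, with 0 to 11 counts per library, and the thioredoxin-like gene BC629DRAFT_1029796 and the superoxide dismutase domain gene BC629DRAFT_1590960, both with 0 counts in all 9 libraries.

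**Figure D1:**
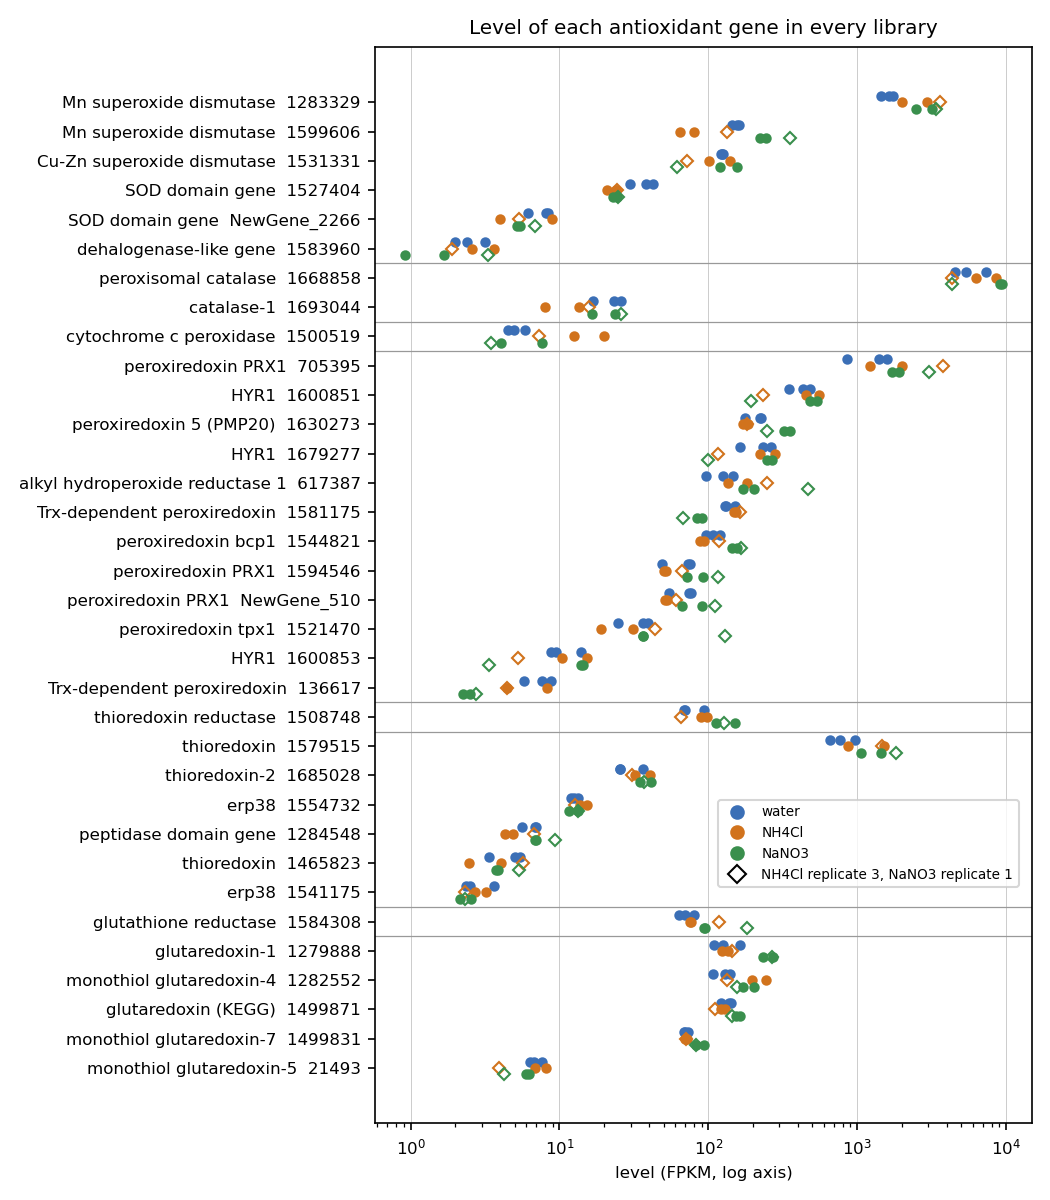
Level of 34 of the 35 tested genes in FPKM (log axis), 1 row per gene in family order, 1 point per library, with the libraries NH4Cl replicate 3 and NaNO3 replicate 1 as open diamonds. The peroxisomal catalase spans 4294 to 9390.1 FPKM, and each family spreads over 1 or more orders of magnitude where it has several genes.

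A gene was called changed at a Benjamini-Hochberg adjusted p under 0.05 over all 14808 genes tested, with edgeR's quasi-likelihood test on the counts. With NaNO3 against water, 1 of the 35 genes was higher, glutaredoxin-1, and 3 were lower, a pair of thioredoxin-dependent peroxiredoxins and a superoxide dismutase domain gene. Over all genes 5.06% were called, 1.18% higher and 3.88% lower. Before adjustment, 8 of the 35 were higher and 3 lower at p under 0.05, against 10.8% and 14.0% of all genes. DESeq2 called 7 of the 35 genes higher and 3 lower, beside 5.73% and 6.61% of all genes given an adjusted p by DESeq2. Calls over all genes numbered 749 with all libraries, 0 without water replicate 2 or 3, 1 without NaNO3 replicate 2 or 3, and 386 to 700 on leaving out each of the other 5 libraries. The groups did not overlap at more genes than were called: 11 of 35 genes had all 3 NaNO3 libraries above all 3 water libraries, where 14.2% of all genes did, and 4 had them all below, where 18.8% did. The median log2 change was 0.22 over the 35 genes and -0.03 over all genes.

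With NH4Cl against water, 0 of the 35 genes were called, beside 0.675% of all genes (0.277% higher and 0.398% lower), and DESeq2 called 2 higher and 2 lower, beside 4.07% and 4.63% of all genes. Before adjustment, p was under 0.05 at 3 higher genes, namely the abundant manganese superoxide dismutase, cytochrome c peroxidase and the abundant thioredoxin, and 3 lower ones, namely the other manganese superoxide dismutase, a superoxide dismutase domain gene and catalase-1 (all genes 7.77% higher, 11.0% lower). The NH4Cl and water libraries did not overlap at 3 higher and 3 lower genes (all genes 11.9% and 16.1%). The median log2 change was -0.08, against -0.02 over all genes.

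With NH4Cl against NaNO3, 1 of 35 genes was called, the less abundant manganese superoxide dismutase, lower with NH4Cl (all genes 1.09% in either direction, 0.594% higher and 0.500% lower). Before adjustment, 10 genes were lower and 3 higher with NH4Cl at p under 0.05, against 10.2% and 10.9% of all genes. Peroxiredoxins, which are 12 of the 35 genes tested, made up 5 of the 10 lower genes and 2 of the 3 higher ones. DESeq2 called 3 genes higher and 7 lower with NH4Cl, beside 4.98% and 5.06% of all genes. All NH4Cl libraries lay below all NaNO3 libraries at 9 genes (12.3% of all genes) and above at 2 (12.9%). The comparisons of each salt with water share the water libraries, and those with NaNO3 share its libraries, so they are not independent of each other.

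**Figure D2:**
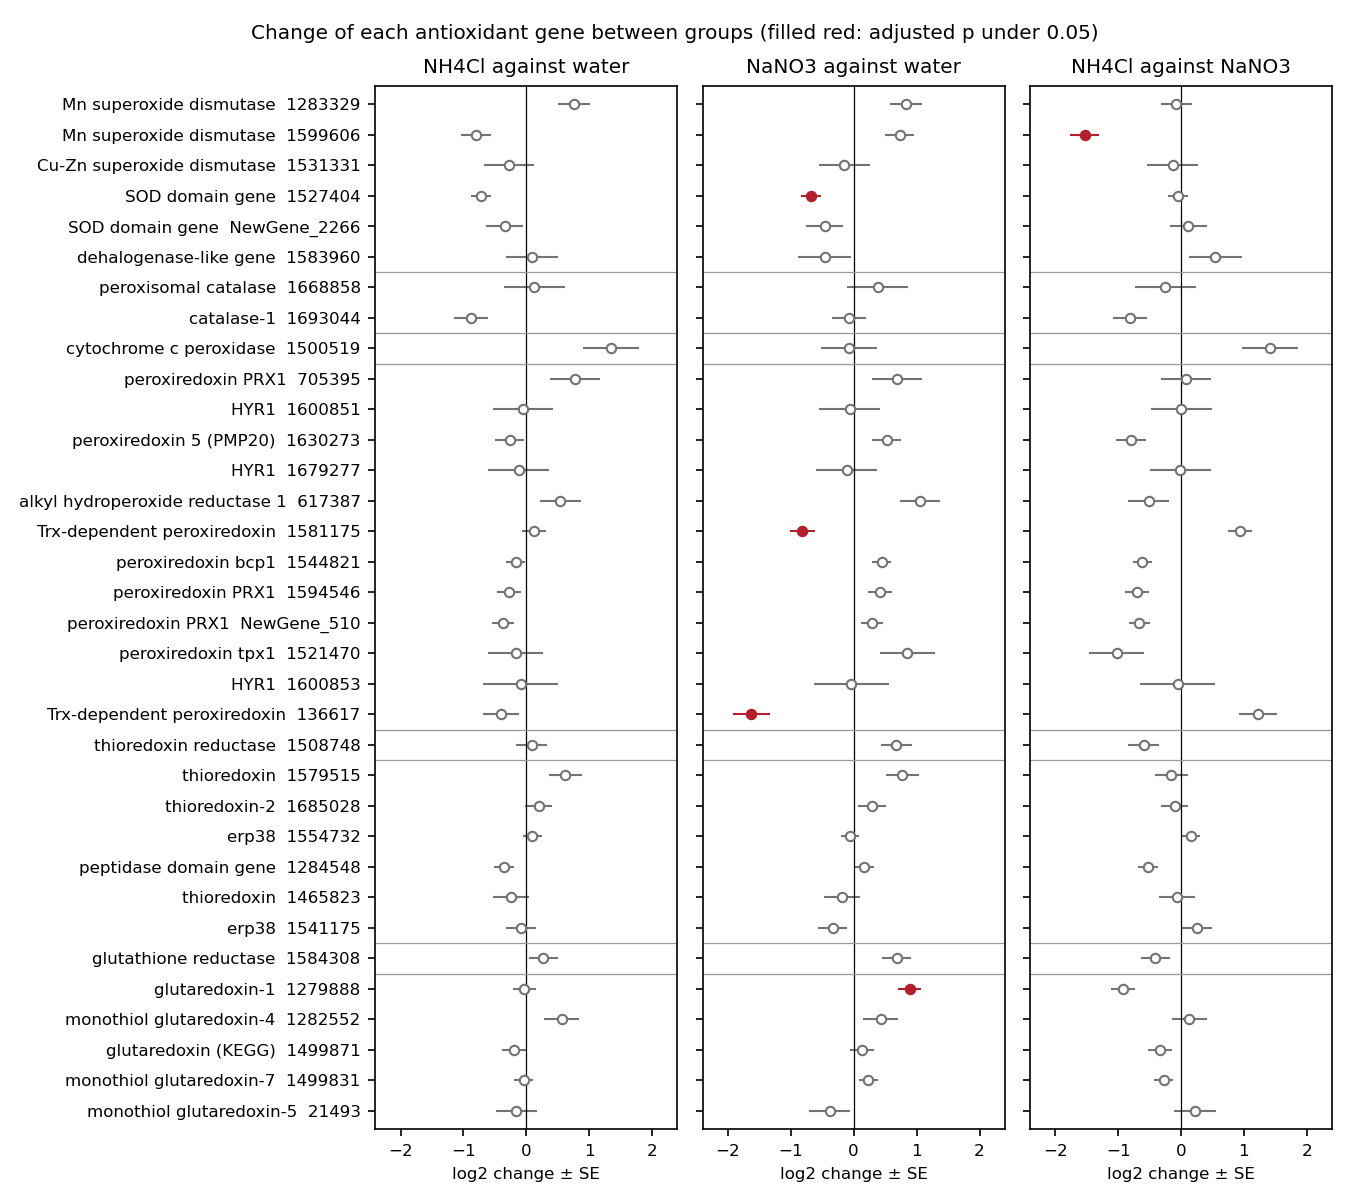
Log2 change with its standard error for 34 of the 35 tested genes in the 3 comparisons, in the same order as the levels, with filled red points for an adjusted p under 0.05. Filled points stand at 0 genes with NH4Cl against water, 4 with NaNO3 against water and 1 with NH4Cl against NaNO3.

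A manganese superoxide dismutase, an enzyme that in fungi acts in the mitochondrial matrix or the cytosol, gave the largest log2 difference of the 35 genes between NH4Cl and NaNO3. Levels by library are stated as CPM, the count of a gene scaled to library size with edgeR's TMM factors, which compares 1 gene between libraries. The less abundant enzyme, BC629DRAFT_1599606, had 127, 118 and 112 CPM with water, 63.0, 49.4 and 92.8 with NH4Cl and 223, 199.6 and 171 with NaNO3. The groups did not overlap: every NH4Cl library was below every water library, and every NaNO3 library above. The difference between NH4Cl and NaNO3 was -1.53 ± 0.24 (log2, SE, adjusted p = 0.0329). Those against water, -0.80 ± 0.23 with NH4Cl (adjusted p = 0.122) and 0.73 ± 0.23 with NaNO3 (adjusted p = 0.101), did not pass with edgeR. With DESeq2 the differences against water passed (adjusted p = 0.0368 and 0.0233). The call between NH4Cl and NaNO3 was kept in 1 of 9 fits with a library left out, that without NH4Cl replicate 3 (-1.80, adjusted p = 0.0122). It ended without any of the other 8 libraries, with an adjusted p of up to 0.11 and log2 values of -1.63 to -1.35. Of all 18 alternatives, the call was kept in 6. Without both libraries that stood apart, all 3 differences of this gene passed, at -1.72 (adjusted p = 0.00596), -1.07 (adjusted p = 0.0216) and 0.66 (adjusted p = 0.0424).

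The abundant manganese superoxide dismutase, BC629DRAFT_1283329, was the main superoxide dismutase transcript in every library. It had 1234, 1111 and 1014 CPM with water, 1419, 2028 and 2232 with NH4Cl and 1929.9, 2333 and 1715 with NaNO3. All libraries with either salt were above all water libraries, and the salts overlapped. The log2 changes were 0.76 ± 0.25 with NH4Cl (adjusted p = 0.156) and 0.83 ± 0.25 with NaNO3 (adjusted p = 0.0896), so neither passed with edgeR, and both passed with DESeq2 (adjusted p = 0.00907 and 0.00211). The direction of this gene with NH4Cl was thus opposite to that of the other manganese enzyme, whose NH4Cl libraries were all below water.

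The remaining superoxide dismutase entries had lower FPKM. BC629DRAFT_1527404, a gene with a superoxide dismutase domain and only a KEGG text to name it, had 40.8, 44.1 and 31.6 CPM with water, 25.8, 21.8 and 23.2 with NH4Cl and 21.5, 25.6 and 25.7 with NaNO3. Both salts lay below water with no overlap. It was called lower with NaNO3 at -0.68 ± 0.16 (adjusted p = 0.0479). With NH4Cl, at -0.72 ± 0.16, it did not pass with edgeR (adjusted p = 0.0698) and passed with DESeq2 (adjusted p = 0.00337). The NaNO3 call ended on leaving out any 1 of the 9 libraries, water 1 to 3, NH4Cl 1 to 3 or NaNO3 1 to 3 (adjusted p = 0.0588 to 0.18). Of all 18 alternatives, it was kept in 1, the DESeq2 test. The copper-zinc enzyme BC629DRAFT_1531331, which works mostly in the cytosol, had 98.4, 96.3 and 101 CPM with water, 82.9, 109 and 51.6 with NH4Cl and 40.3, 131 and 95.7 with NaNO3. Its groups overlapped, with the lowest values in the pair of libraries that stood apart, and no comparison passed (adjusted p = 0.76 to 0.88). NewGene_2266, a superoxide dismutase domain gene with the same KEGG best hit as BC629DRAFT_1527404, had all NaNO3 libraries below all water libraries. Its change of -0.46 ± 0.29 did not pass (adjusted p = 0.361). Another entry, BC629DRAFT_1583960, carries a haloacid dehalogenase domain and was taken by its KEGG text only. Summed over the family, superoxide dismutase counts made up 0.123% to 0.147% of a water library, 0.152% to 0.26% of an NH4Cl library and 0.196% to 0.264% of a NaNO3 library, a sum that the abundant manganese enzyme dominates.

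**Figure D3:**
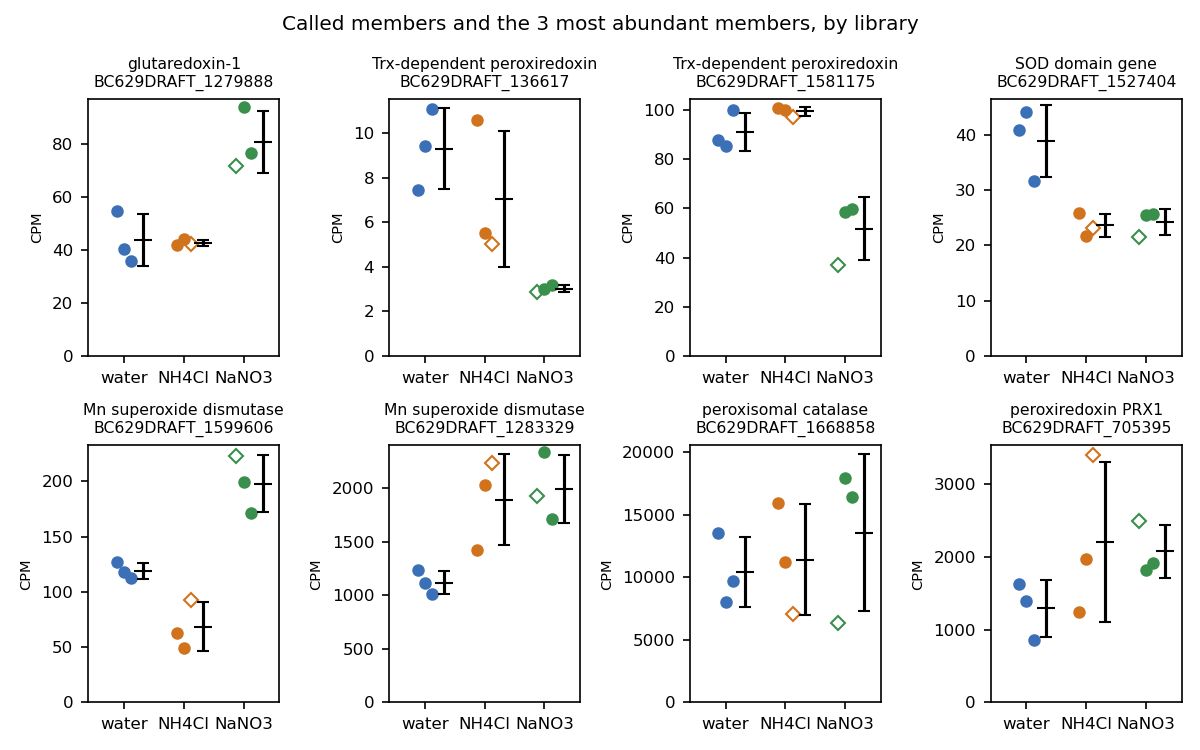
CPM by library for the 5 genes called in any comparison and the 3 genes with the highest FPKM, with the mean and SD of each group (n = 3) and NH4Cl replicate 3 and NaNO3 replicate 1 as open diamonds. Glutaredoxin-1 lies above its water range in all NaNO3 libraries, whereas the peroxisomal catalase overlaps in all groups.

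The peroxisomal catalase, which breaks down the peroxide made by oxidases inside peroxisomes, did not differ between groups beyond the spread of the libraries. It had 13504, 8055 and 9718 CPM with water, 15942, 11199 and 7056 with NH4Cl and 6372, 17956 and 16414 with NaNO3. The lowest values were those of NaNO3 replicate 1 and NH4Cl replicate 3, and the highest those of the other NaNO3 libraries, so the groups overlapped. The log2 changes were 0.13 ± 0.49 with NH4Cl (adjusted p = 0.921) and 0.38 ± 0.49 with NaNO3 (adjusted p = 0.666). This single gene took 0.756% to 1.65% of all counts in a library and 46.4% to 75.7% of the counts of all 38 genes. By FPKM it ranked between 5 and 11 of all genes in each library.

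Catalase-1, BC629DRAFT_1693044, had 49.8, 75.2 and 68.9 CPM with water, 40.5, 23.3 and 41.5 with NH4Cl and 62.4, 73.5 and 48.2 with NaNO3. Every NH4Cl library was below every library of the other groups, but neither difference passed, at -0.88 ± 0.27 against water (adjusted p = 0.134) and -0.81 ± 0.27 against NaNO3 (adjusted p = 0.142). Cytochrome c peroxidase, BC629DRAFT_1500519, a mitochondrial enzyme, showed the largest log2 change of the 35 genes with NH4Cl against water. It had 11.4, 8.45 and 9.44 CPM with water, 38.6, 23.5 and 12.4 with NH4Cl and 5.42, 8.11 and 14.4 with NaNO3. The NH4Cl libraries were all above water and overlapped with NaNO3. The changes of 1.34 ± 0.45 against water (adjusted p = 0.159) and 1.42 ± 0.45 against NaNO3 (adjusted p = 0.127) did not pass with edgeR. The gene passed in both comparisons with DESeq2 (adjusted p = 0.0391 and 0.0299). Its lowest NH4Cl value was that of replicate 3, and without both libraries that stood apart it passed against water (1.68, adjusted p = 0.0306) and against NaNO3 (1.46, adjusted p = 0.0495).

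Peroxiredoxins were the largest family, and those that edgeR called with NaNO3 against water were lower. Of 12 genes, edgeR called 2 lower and 0 higher against water (3.88% and 1.18% of all genes). DESeq2 called 2 in each direction (5.73% of all genes higher, 6.61% lower). The p before adjustment was below 0.05 for 2 genes in each direction (10.8% of all genes higher, 14.0% lower). All NaNO3 libraries lay above all water libraries at 4 genes and below at 2 (14.2% and 18.8% of all genes). The called genes were a pair annotated as thioredoxin-dependent peroxiredoxins by the same KEGG best hit. BC629DRAFT_136617 had 7.44, 9.40 and 11.1 CPM with water, 10.6, 5.52 and 5.03 with NH4Cl and 2.87, 2.98 and 3.19 with NaNO3. Every NaNO3 library was below every other library, and the change against water was -1.62 ± 0.30 (adjusted p = 0.0259). That call was kept in 12 of 18 alternatives and ended without water replicate 2 or 3 (adjusted p = 0.103 and 0.0908) or without NaNO3 replicate 1, 2 or 3 (adjusted p = 0.0578, 0.0859 and 0.0917).

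BC629DRAFT_1581175, the more abundant of the pair at 124 against 5.19 FPKM, had 87.7, 85.5 and 100.2 CPM with water, 101, 100.1 and 97.4 with NH4Cl and 37.0, 58.7 and 59.8 with NaNO3. The NaNO3 libraries were again below all others, at -0.81 ± 0.19 against water (adjusted p = 0.0493), while NH4Cl lay within 0.13 ± 0.19 of water (adjusted p = 0.77). The call ended on leaving out any 1 of the 9 libraries, water 1 to 3, NH4Cl 1 to 3 or NaNO3 1 to 3 (adjusted p = 0.0535 to 0.16), and stood without both libraries that stood apart (-0.60, adjusted p = 0.0356). Of all 18 alternatives, it was kept in 5. Against NaNO3, NH4Cl was higher at both genes without passing, by 1.22 ± 0.30 (adjusted p = 0.0813) and 0.94 ± 0.19 (adjusted p = 0.0566). The second passed with DESeq2, in the 3 limma fits (adjusted p = 0.0399 to 0.0421), without NH4Cl replicate 3 (0.98, adjusted p = 0.046) and without both libraries that stood apart (0.76, adjusted p = 0.0253), and the first with DESeq2 (adjusted p = 0.00973) and without NH4Cl replicate 3 (1.44, adjusted p = 0.0435).

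Several other peroxiredoxins lay lower with NH4Cl than with NaNO3. Bcp1, BC629DRAFT_1544821, a thiol peroxidase in fission yeast, had 157, 136 and 124 CPM with water, 124, 112 and 135 with NH4Cl and 174, 195 and 199 with NaNO3. NaNO3 was above both other groups with no overlap, at -0.61 ± 0.15 for NH4Cl against NaNO3 (adjusted p = 0.0854, and 0.0362 without both libraries that stood apart). This difference passed with DESeq2 (adjusted p = 0.000472). The peroxisomal peroxiredoxin PMP20, BC629DRAFT_1630273, had 237, 227 and 185 CPM with water, 181, 189 and 169.8 with NH4Cl and 211, 389 and 335 with NaNO3. NaNO3 replicate 1 was inside the water range and the other NaNO3 libraries above it. The difference between NH4Cl and NaNO3 was -0.79 ± 0.23 and did not pass with edgeR (adjusted p = 0.111). It passed with DESeq2 (adjusted p = 0.0152) and, at -0.97, without both libraries that stood apart (adjusted p = 0.0236).

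PRX1 is the mitochondrial peroxiredoxin of budding yeast. The abundant PRX1 gene, BC629DRAFT_705395, had 1629.6, 1392 and 863 CPM with water, 1244, 1971 and 3410.1 with NH4Cl and 2499, 1824 and 1919 with NaNO3. The NaNO3 libraries were above water, the NH4Cl libraries overlapped with both, and no comparison passed (adjusted p = 0.32 to 0.924). A pair of less abundant PRX1 genes with the same best protein hit, BC629DRAFT_1594546 and NewGene_510, lay lower with NH4Cl than with NaNO3 with no overlap in the first (39.1, 38.7 and 44.7 against 72.1, 56.8 and 69.5 CPM) and in the second (32.3, 30.0 and 32.0 against 54.0, 41.4 and 53.5 CPM). Their differences of -0.70 ± 0.19 and -0.66 ± 0.17 did not pass with edgeR (adjusted p = 0.0963 and 0.0908) and passed with DESeq2 (adjusted p = 0.0133 and 0.00963). BC629DRAFT_1594546 carries the KEGG text of a proteasome subunit beside its PRX1 name. BC629DRAFT_705395 and NewGene_510 carry the KEGG text of a glutaredoxin- or glutathione-dependent peroxiredoxin.

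The alkyl hydroperoxide reductase AHP1, BC629DRAFT_617387, which in budding yeast prefers organic peroxides, had 130.1, 107 and 84.4 CPM with water, 119.8, 155 and 192 with NH4Cl and 332, 186 and 149.6 with NaNO3. Its NaNO3 libraries were above all water libraries, with replicate 1 highest. The change of 1.05 ± 0.33 did not pass with edgeR (adjusted p = 0.096) and passed with DESeq2 (adjusted p = 0.0193). Tpx1, BC629DRAFT_1521470, the main peroxiredoxin of fission yeast, had 128 CPM in NaNO3 replicate 1 and 23.5 to 48.0 CPM in the other 8 libraries. The HYR1 genes, glutathione peroxidase-like enzymes that in budding yeast sense peroxide and pass the signal to the regulator Yap1, did not differ between groups beyond the spread of the libraries. The most abundant, BC629DRAFT_1600851, had 239, 254 and 190.1 CPM with water, 249, 296 and 112 with NH4Cl and 85.8, 306 and 261 with NaNO3, where the low values are those of the pair of libraries that stood apart (all comparisons adjusted p = 0.95 to 0.994). BC629DRAFT_1679277, with the same best hits, followed it in every library, since the ratio of their counts stayed between 1.81 and 2.14.

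The thioredoxin system returns electrons to many peroxiredoxins. The 8 tested genes with thioredoxin or thioredoxin reductase wording include 2 protein disulfide-isomerases and a peptidase domain gene. Of these, edgeR called 0 with NH4Cl against water, NaNO3 against water or NH4Cl against NaNO3 (0.675%, 5.06% and 1.09% of all genes). At an unadjusted p under 0.05, the abundant thioredoxin was higher with NH4Cl against water (7.77% of all genes). The same gene and the reductase were higher with NaNO3 against water (10.8%). The reductase and the peptidase domain gene were lower with NH4Cl than with NaNO3 (10.2%), and 0 genes went the other way in each comparison. DESeq2 called 0 of the 8 genes with NH4Cl against water (4.07% of all genes higher, 4.63% lower). With NaNO3 against water it called the abundant thioredoxin, higher (5.73% higher, 6.61% lower). With NH4Cl against NaNO3 it called the peptidase domain gene, lower (4.98% higher, 5.06% lower). The abundant thioredoxin, BC629DRAFT_1579515, had 352, 266 and 236 CPM with water, 317, 529 and 464 with NH4Cl and 533, 545 and 377 with NaNO3. The NaNO3 libraries lay above all water libraries at 0.77 ± 0.26 (adjusted p = 0.12), and NH4Cl overlapped with water at 0.62 ± 0.26 (adjusted p = 0.249). Thioredoxin reductase, the only gene of its kind by this wording, had 132, 93.4 and 97.2 CPM with water, 138, 123 and 81.2 with NH4Cl and 143, 163 and 209 with NaNO3. Its NaNO3 libraries were above all others, the change of 0.68 ± 0.25 against water did not pass (adjusted p = 0.141), and it passed without both libraries that stood apart (0.81, adjusted p = 0.0449).

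The entries BC629DRAFT_1554732 and BC629DRAFT_1541175 are erp38, protein disulfide-isomerases that fold secreted proteins in the endoplasmic reticulum, and their log2 changes ran from -0.34 to 0.26. BC629DRAFT_1284548 bears a thioredoxin allergen's name but a peptidase domain. Its difference of -0.52 ± 0.16 between NH4Cl and NaNO3 did not pass (adjusted p = 0.117), at 9.78, 10.7 and 13.4 against 17.0, 16.0 and 15.5 CPM.

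Glutaredoxin-1, a dithiol glutaredoxin, was the only gene of the set that edgeR called higher with either salt than with water. It had 54.8, 40.6 and 35.8 CPM with water, 41.8, 44.1 and 42.3 with NH4Cl and 72.0, 94.2 and 76.9 with NaNO3. The NaNO3 libraries lay above all 6 others, and NH4Cl inside the water range. The change with NaNO3 was 0.89 ± 0.18 against water (adjusted p = 0.0365). NH4Cl against NaNO3 was -0.92 ± 0.18 and did not pass with edgeR (adjusted p = 0.0535). That difference passed with DESeq2 (adjusted p = 0.000279) and without both libraries that stood apart (adjusted p = 0.0446). The call against water was kept in 11 of 18 alternatives. It ended when water replicate 2 or 3 was left out (adjusted p = 0.151 and 0.124), on leaving out NH4Cl replicate 2 (adjusted p = 0.0607), and for NaNO3 replicate 2 or 3 (adjusted p = 0.0859 and 0.0897). The log2 change was 0.76 to 1.09 over the alternatives.

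The other 4 glutaredoxins were not called. Glutaredoxin-4, a monothiol enzyme that in yeasts takes part in iron sensing, had 117, 104 and 89.0 CPM with water, 164, 196 and 98.5 with NH4Cl and 103, 148 and 166 with NaNO3. Its groups overlapped, at 0.56 ± 0.28 for NH4Cl against water (adjusted p = 0.32). Without both libraries that stood apart this became 0.82 and passed (adjusted p = 0.0356). Glutathione reductase, which regenerates glutathione from its disulfide, had 129, 109 and 101 CPM with water, 121, 119 and 168 with NH4Cl and 236, 159 and 148 with NaNO3. Its NaNO3 libraries were above all water libraries, with replicate 1 highest. The change of 0.68 ± 0.23 did not pass with edgeR (adjusted p = 0.118) and passed with DESeq2 (adjusted p = 0.0365).

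The pair of libraries that stood apart bore on many of these values. NH4Cl replicate 3 and NaNO3 replicate 1 were together the lowest of the 9 libraries at 10 of the 35 genes, which is 28.6%, against 10.6% of all genes. These were the peroxisomal catalase, all 3 HYR1 genes, the copper-zinc superoxide dismutase, 3 glutaredoxins and both erp38 genes. They were together the highest at 3 genes, which is 8.57%, against 7.85% of all genes. These were PRX1 BC629DRAFT_705395, AHP1 and glutathione reductase. Without them, 3 genes were called with NH4Cl against water, 6 with NaNO3 against water and 6 with NH4Cl against NaNO3. Calls over all genes also rose in that fit, to 5.13%, 7.39% and 5.43%. What sets these libraries apart was not tested, and the files hold nothing that could show whether their labels are right, so every NH4Cl and NaNO3 value is given as labelled.

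**Figure D4:**
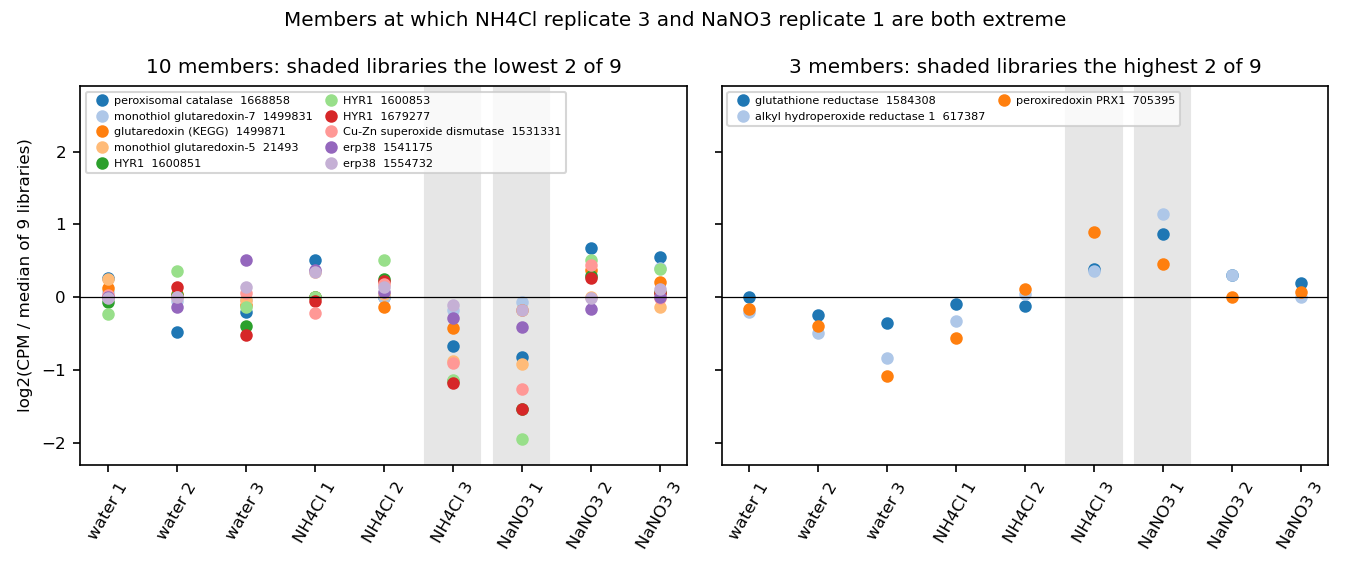
Log2 of CPM over the median of the 9 libraries for the genes at which NH4Cl replicate 3 and NaNO3 replicate 1 (shaded) are together the lowest (left, 10 genes) or the highest (right, 3 genes). The catalase, HYR1 and copper-zinc superoxide dismutase points are below 0 in both shaded libraries, and the PRX1, AHP1 and glutathione reductase points above 0.

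A wider list of redox genes outside the set, chosen by wording, covered glutathione synthesis, supply of NADPH, methionine sulfoxide repair, alternative oxidase and the AP-1-like and Skn7-type regulators. It held 33 genes, of which 27 were tested. With NaNO3 against water 5 were called, all lower, and 0 higher, beside 3.88% and 1.18% of all genes. In the other comparisons, NH4Cl against water and NH4Cl against NaNO3, 0 were called, beside 0.675% and 1.09% of all genes. At an unadjusted p under 0.05 there were 7 higher and 7 lower with NaNO3 against water, where 10.8% and 14.0% of all genes were. With NH4Cl against water there were 1 higher and 4 lower (7.77% and 11.0% of all genes), and with NH4Cl against NaNO3 3 higher and 4 lower (10.9% and 10.2%). DESeq2 called 6 higher and 7 lower with NaNO3 against water (5.73% and 6.61% of all genes), 1 higher and 2 lower with NH4Cl against water (4.07% and 4.63%), and 2 higher and 4 lower with NH4Cl against NaNO3 (4.98% and 5.06%).

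The regulators were on the lower side. The AP-1-like factor yap1, BC629DRAFT_1282116, which in budding yeast activates peroxiredoxin, thioredoxin and glutathione genes, had 466, 442 and 400.4 CPM with water, 359, 227 and 238 with NH4Cl and 172, 227 and 195 with NaNO3. Both salts were below water with no overlap, and NaNO3 passed at -1.14 ± 0.22 (adjusted p = 0.0294). A prr1 gene, BC629DRAFT_1281419, whose fission yeast namesake is a response regulator of oxidative stress, had 123, 161 and 153 CPM with water, 104, 97.6 and 103 with NH4Cl and 81.7, 48.7 and 44.2 with NaNO3. The groups stood in the order water, NH4Cl, NaNO3 with no overlap, and NaNO3 passed at -1.32 ± 0.24 (adjusted p = 0.0259). A second prr1 gene, NewGene_3627, was lower by -1.25 ± 0.26 with NaNO3 (adjusted p = 0.0371). The call of yap1 ended without any water or NaNO3 library, that of BC629DRAFT_1281419 without water replicate 2 or 3 or NaNO3 replicate 2 or 3, and that of NewGene_3627 without any library but NaNO3 replicate 1 (highest adjusted p = 0.112, 0.104 and 0.14).

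The mitochondrial alternative oxidase BC629DRAFT_138635, which passes respiratory electrons to oxygen and limits superoxide formation, had 44.1, 31.7 and 37.0 CPM with water, 19.5, 10.7 and 9.09 with NH4Cl and 16.1, 7.43 and 10.1 with NaNO3. Both salts were below water with no overlap, at -1.74 ± 0.35 with NaNO3 (adjusted p = 0.0346) and -1.52 ± 0.35 with NH4Cl (adjusted p = 0.0762, not passing with edgeR). The NH4Cl difference passed with DESeq2 (adjusted p = 0.00337) and without both libraries that stood apart (-1.30, adjusted p = 0.0486). It also passed without NH4Cl replicate 1 (adjusted p = 0.0446) or NaNO3 replicate 1 (adjusted p = 0.0490). Of the 9 fits with a library left out, the NaNO3 call was kept in those that dropped NH4Cl replicate 1, NH4Cl replicate 3 or NaNO3 replicate 1 and ended in the other 6 (highest adjusted p = 0.114).

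Of the NADPH and pentose phosphate genes, edgeR called 0 higher and 1 lower with NaNO3 against water (1.18% and 3.88% of all genes). DESeq2 called 6 of them higher and 1 lower, beside 5.73% and 6.61% of all genes. Of 12 tested, which include a 2-oxoglutarate dehydrogenase taken by transketolase wording, 7 had all NaNO3 libraries above all water libraries and 1 below, beside 14.2% and 18.8% of all genes, with a median log2 change of 0.43. Glucose-6-phosphate dehydrogenase BC629DRAFT_1706912, which commits glucose to the NADPH-making pathway, had 344, 272 and 254 CPM with water, 317, 369 and 336 with NH4Cl and 426, 531 and 512 with NaNO3. Its change of 0.76 ± 0.19 with NaNO3 did not pass with edgeR (adjusted p = 0.0532). It passed with DESeq2 (adjusted p = 8.00e-05) and without both libraries that stood apart (adjusted p = 0.0312). The abundant transaldolase BC629DRAFT_1544804, of the non-oxidative branch, had 1136, 843 and 686 CPM with water, 983, 1244 and 1129 with NH4Cl and 1618, 1578 and 1565 with NaNO3, at 0.84 ± 0.24 (adjusted p = 0.0767). Among enzymes that make NADPH, 6-phosphogluconate dehydrogenase BC629DRAFT_1674248 had the highest level, 915 FPKM, and a change of 0.56 ± 0.24 (adjusted p = 0.191). With DESeq2 this transaldolase and this dehydrogenase passed (adjusted p = 0.000765 and 0.0272). The 1 gene below was a second, weakly expressed transaldolase, BC629DRAFT_56576, called at -1.66 ± 0.39 (adjusted p = 0.0483), whose call was kept without water replicate 1 or NaNO3 replicate 1 and ended without any other library (highest adjusted p = 0.143). The glutamate-cysteine ligase BC629DRAFT_1442651, which starts glutathione synthesis, had 72.8, 81.5 and 80.4 CPM with water, 32.6, 49.6 and 60.8 with NH4Cl and 64.6, 92.9 and 106 with NaNO3. It was below both other groups with NH4Cl without passing with edgeR, at -0.71 ± 0.25 against water and -0.88 ± 0.26 against NaNO3 (adjusted p = 0.179 and 0.108). Against NaNO3 it passed with DESeq2 (adjusted p = 0.0224). Without both libraries that stood apart it passed against water (-0.91, adjusted p = 0.0462) and against NaNO3 (-1.27, adjusted p = 0.0209).

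The other enzymes of the list did not pass in any comparison with edgeR over all 9 libraries. With DESeq2, BC629DRAFT_1545051, taken by methionine sulfoxide reductase wording, was lower with NH4Cl than with NaNO3 (-0.69, adjusted p = 0.0188). DESeq2 also called the 2-oxoglutarate dehydrogenase BC629DRAFT_1591001 higher than water with NH4Cl (0.50, adjusted p = 0.00377) and with NaNO3 (0.42, adjusted p = 0.0162). The highest gene of each enzyme by FPKM changed as follows with NaNO3 against water. Transketolase BC629DRAFT_1437614 (184 FPKM) differed by -0.13 ± 0.18, the NADP isocitrate dehydrogenase BC629DRAFT_1502648 (52.0 FPKM) by 0.16 ± 0.23 and the malic enzyme BC629DRAFT_1437693 (22.7 FPKM) by 0.18 ± 0.25. The peptide methionine sulfoxide reductase BC629DRAFT_1438774 (107 FPKM), which repairs oxidized methionine, differed by 0.22 ± 0.22, and the glutathione synthetase BC629DRAFT_1581911 (0.662 FPKM) by 0.23 ± 0.40. The wording for glutamate-cysteine ligase also took, through the KEGG text, 4 genes with Swiss-Prot names of transcription regulators, of which BC629DRAFT_1678240 (55.8 FPKM) differed by 0.06 ± 0.19.

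**Figure D5:**
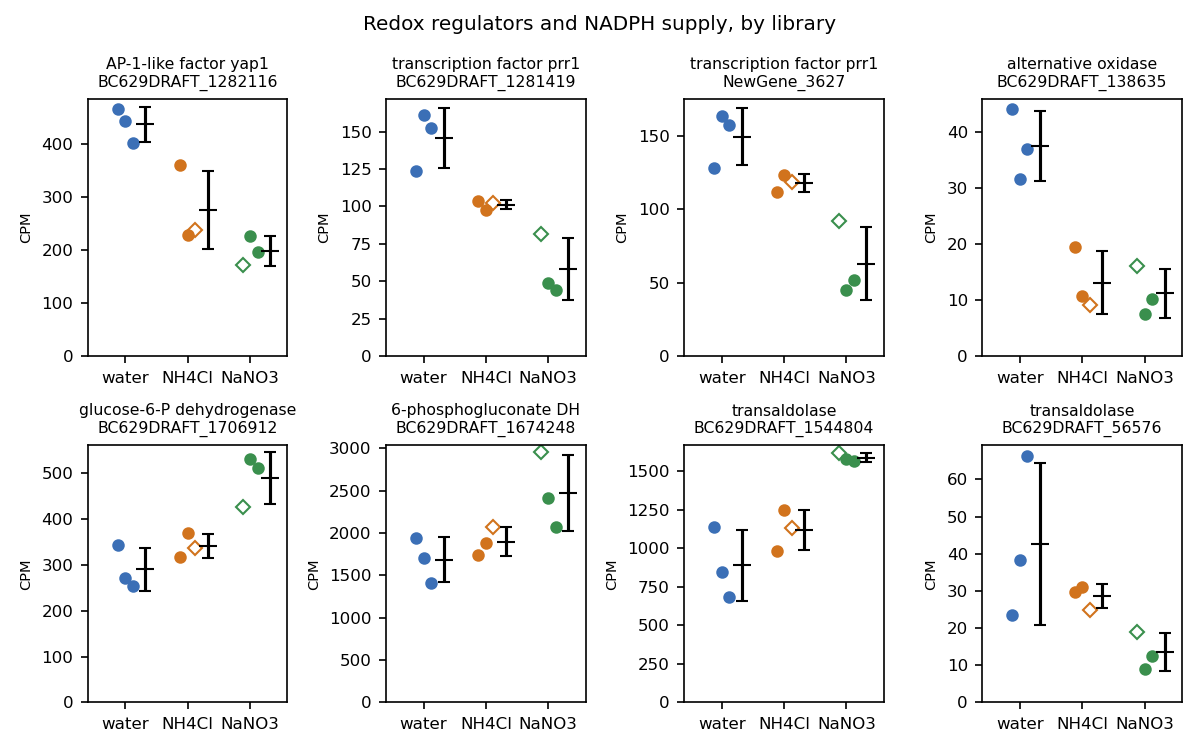
CPM by library for the called regulators and alternative oxidase (upper row) and for enzymes of NADPH supply and the pentose phosphate pathway (lower row), with the mean and SD of each group (n = 3) and NH4Cl replicate 3 and NaNO3 replicate 1 as open diamonds. The 4 genes of the upper row and the transaldolase BC629DRAFT_56576 were called lower with NaNO3 against water by edgeR. The other 3 enzymes of the lower row were not called by edgeR (adjusted p = 0.0532, 0.191 and 0.0767), and DESeq2 called those 3 higher.

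In the authors' deposited table, which used a false discovery rate of 0.01 and a fold of 2 with DESeq2, 2 of the 38 genes were marked as changed. The authors' deposited table gives BC629DRAFT_136617 as lower with NaNO3 against water at -1.60 on the log2 scale (FDR 1.377e-07). The authors' deposited table also gives the manganese superoxide dismutase BC629DRAFT_1599606 as lower with NH4Cl against NaNO3 at -1.53 (FDR 8.18e-05). The HYR1, PRX1, erp38, thioredoxin-dependent peroxiredoxin, superoxide dismutase domain and prr1 groups hold genes with the same name or best annotation hit. Whether their sequences are close enough for reads to be split between them in counting was not tested, and their separate values are uncertain to that extent.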

How the data were processed

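Members and gene lists were chosen by annotation wording with earlier results of these data known. Reads were mapped with HISAT2 and assembled with StringTie, per the submitters' processing notes, with versions not given in the sources used here. The authors deposited gene counts (whole numbers, not normalized) and FPKM values in 1 table with their own comparisons. Genome build, annotation, strandedness and counter are not given in the sources used here. Their false discovery rate and log2 fold change columns, from DESeq2 per the file headers, are the deposited table's own.

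From the counts, edgeR 4.0.16 (R 4.3.3) was run with filterByExpr, TMM factors and glmQLFit over all 9 libraries in 1 fit with 3 groups and no block, then glmQLFTest for 3 comparisons. Of 19212 genes 14808 were tested, 2855 had no count, and p-values were adjusted by Benjamini-Hochberg over all those tested. DESeq2 shares of all genes are over the genes to which DESeq2 gave an adjusted p. These numbered 13768 with NH4Cl against water, 15667 with NaNO3 against water and 14084 with NH4Cl against NaNO3. Shares without both libraries that stood apart are over 14913 genes. The biological coefficient of variation was 0.317. SE is the log2 change divided by the square root of the F statistic. CPM are TMM scaled. Intervals and shares of counts cover counting error only. No libraries were identical, and replicates differed by 43.1 to 454 times sampling noise (chi-square per degree of freedom). Alternatives were DESeq2 1.42.0, its size factors in edgeR, no count filter, limma 3.58.1 on log2(FPKM + 1) or log2(FPKM + 0.1), only the 2 groups compared, the replicate number as a block, each library left out, and both libraries that stood apart left out. The scripts were tested on simulated data. Genes were named when called in any comparison, at an unadjusted p under 0.01 in any, or among the 2 of each family with the highest mean FPKM, which gave 21, of which 1 is not reported here, and further genes named were chosen after their values were seen. From the wider list, called genes and the gene of highest FPKM of each enzyme were named.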

Additional observations from a re-analysis of the deposited data

How the results depend on the processing

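The count of the 35 genes called moved with the method. With NH4Cl against water it was 0, 4 with DESeq2 and 3 without both libraries that stood apart, and 0 with each library left out. With NaNO3 against water it was 4, 2 with DESeq2 size factors, 10 with DESeq2, 2 with no count filter, 1 with only the 2 groups compared, 0 with the replicate block and 0 to 2 with each library left out. With NH4Cl against NaNO3 it was 1, 10 with DESeq2, 2 with limma on log2(FPKM + 1), 0 with only the 2 groups compared, 0 with the replicate block, 0 to 4 with each library left out (4 without NH4Cl replicate 3) and 6 without both. The wider list's count, summed over the 3 comparisons, was 5 and became 22 with DESeq2 (13 of them with NaNO3 against water), 3 with no count filter, 3 with limma on log2(FPKM + 0.1), 3 with limma and no filter, 2 with only the 2 groups, 0 with the replicate block, 0 to 12 with each library left out (12 without NaNO3 replicate 1, of them 7 with NaNO3 against water) and 15 without both (8 with NaNO3 against water). Calls over all genes moved too, given in the same order of comparisons. They numbered 100, 749 and 162 in the main fit, 1197, 1934 and 1413 with DESeq2, and 80, 653 and 152 with DESeq2 size factors. No count filter gave 48, 527 and 136, and only the 2 groups compared gave 10, 492 and 12. The replicate block gave 0, 0 and 3, and dropping both libraries 765, 1102 and 810. Each library left out gave 0 to 365, 0 to 700 and 0 to 535. The cause was not tested.

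The labels do not say that replicate numbers pair the samples. Same-numbered deviations correlated at -0.28 to 0.29. With 3 libraries a group, some of which stood apart, these values cannot show whether the numbers pair cultures. The log2 ratio of the glutaredoxin sums, NaNO3 over water, was 0.357 by share of counts and 0.538 by summed FPKM. Glutaredoxin-1 with NH4Cl against water was -0.03 and ran from -0.16 to 0.16 with each library left out, positive without water replicate 1. PRX1 BC629DRAFT_705395 with NH4Cl against NaNO3 was 0.09 and ran from -0.36 to 0.36, negative without NH4Cl replicate 3. Over all genes the calls ran from 0 to 1197, 0 to 1934 and 0 to 1413 in the 3 comparisons. With 3 libraries a group and this spread, a gene that did not pass is not shown to be unchanged.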
